A study of Mus musculus with 6 samples.

Results

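The genes described here build sterols and fatty acids, together with the genes that control that synthesis, move sterols inside the cell or pump them out. The list has 34 genes, chosen by symbol with earlier results of these data known. A gene was read from the probe set annotated to it alone, and where several qualified from the one with the highest mean log2 intensity over the arrays. Such a probe set named 33 of the 34 genes. Acat2, which joins acetyl units at the entry to the sterol pathway, had none and was not analysed here. All 33 were tested, among 11572 genes tested of 18193 named.

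RNA came from C57BL/6 mouse CD4 T cells, wild type or Ezh2 knock out (Ezh2 KO), started as naive (CD44low CD62Lhigh) cells from spleen. The cells spent 2 days on plates coated with antibody to TCRβ (10 μg/ml), with antibody to CD28 (1 μg/ml), then 3 days without either antibody, with IL-2 (15 ng/ml) throughout. For Th1 the medium held IL-12 (1 ng/ml) with IL-4 blocked by antibody, and for Th2 it held IL-4 (10 ng/ml) with interferon gamma blocked. Unpolarized cells had both IL-4 and interferon gamma blocked and neither polarizing cytokine added. Each of the 6 combinations of genotype and culture was measured on 1 Affymetrix array. How the Ezh2 allele was made, in which cells it was deleted, the age of the mice and whether arrays of one culture share a preparation are not stated in the labels. With 1 array per combination, the only replication is across cultures, so values are mean log2 differences (Ezh2 KO minus wild type) ± SD over the 3 culture pairs. The p-values rest on the spread between those pairs, drawn by limma toward a spread shared by all genes. With no replicate of a combination, they do not measure the spread between mice or preparations.

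Cells make cholesterol from acetyl-CoA through mevalonate, farnesyl units, squalene and lanosterol, and fatty acids from the same acetyl-CoA. SREBP transcription factors, made as membrane precursors from Srebf1 and Srebf2, turn on most genes of both routes when sterols are scarce. Scap escorts the precursors to the Golgi for cleavage, and the Insig proteins hold them back in the endoplasmic reticulum when sterols are plentiful. LXR receptors respond to oxidized sterols and turn on the export pumps Abca1 and Abcg1. Activated T cells draw on both routes to build membrane as they divide.

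Most synthesis genes were lower in Ezh2 KO cells. Of the 5 genes of SREBP control 0 passed the test, although Insig1 and Srebf2 passed under some alternatives, and no test compared the arms. Of the 33 genes, 20 were lower, 0 were higher and 13 were not called (limma, Benjamini-Hochberg adjusted p under 0.05 over all genes tested). Among all genes tested, 924 (7.98%) were lower and 966 (8.35%) were higher. Because earlier results of these data were known when the list was chosen, its shares beside those of all genes are no independent test. The median difference was -0.89 over the synthesis list and -0.07 over all genes. A mean fall of at least 2-fold was measured in 11 of 33 listed genes (33.3%) and in 3.42% of all genes. All 3 Ezh2 KO arrays lay below all 3 wild type arrays for 26 of the 33, against 27.5% of all genes. The opposite, all Ezh2 KO arrays above all wild type arrays, held for 1 of the 33 (Abca1), against 20.1% of all genes, and the groups overlapped for 6 (Ebp, Insig2, Srebf1, Scap, Elovl6 and Abcg1). In RNA from whole cultures, fewer cells of a type and less RNA per cell cannot be told apart.

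**Figure D1:**
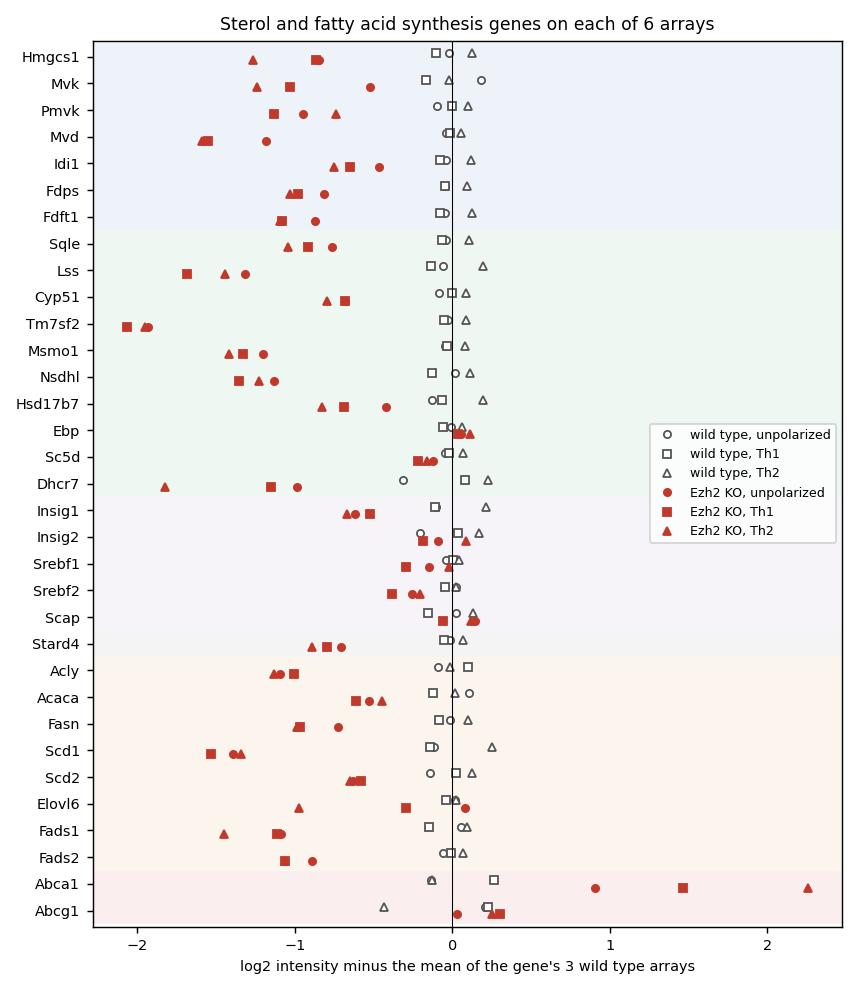
Each row is 1 of the 33 genes and each point 1 array. The horizontal axis is the log2 intensity minus the mean of that gene's 3 wild type arrays; open symbols are wild type, filled symbols Ezh2 KO, and the shape gives the culture. Filled symbols lie left of all open symbols for 26 genes, right of them for Abca1, and among them for the 6 genes whose groups overlap.

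These calls rest on all 3 culture pairs. With the unpolarized, the Th1 or the Th2 pair left out, 0 of the 20 calls passed, with adjusted p between 0.0803 and 0.149, while the differences stayed below zero in all 60 refitted values. Without the filter on dim genes 0 of the 20 passed either (adjusted p 0.0769 to 0.105). When each array was centred on its own median, 4 of the 20 missed the threshold (Hmgcs1, Cyp51, Acaca and Scd2), and all genes split into 411 lower and 863 higher. Averaging a gene's probe sets ended 3 of the 20 calls (Fdps, Fdft1 and Acaca).

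Ezh2, the methyltransferase subunit of Polycomb repressive complex 2, read 7002, 6553 and 7677 in wild type unpolarized, Th1 and Th2 cells. In Ezh2 KO cells it read 4971, 4876 and 4946. It fell by 0.52 ± 0.11 (adjusted p = 0.0437). The labels do not say whether its probe set lies in the deleted part, so the value does not measure how complete the deletion was. Median centring (-0.47, adjusted p = 0.0922) and omission of the filter (adjusted p = 0.0881) ended the call, as did leaving out any of the pairs (-0.46 to -0.56, adjusted p 0.14 to 0.167).

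The stretch just before the start site of several of these genes is printed to show the letters that SREBP and its partner factors are known to read. RefSeq promoters of mouse build GRCm38.p6 were at hand for 26 of the 34 genes, the exceptions being Fdps, Fdft1, Sqle, Stard4, Scd1, Scd2, Fads1 and Abcg1. Each line holds the 150 bases that end at the start site, written 5′ to 3′ on the strand of the gene. Capitals mark the motifs searched, on either strand. These are a sterol regulatory element (TCACNCCAC), the box of the factor NF-Y (CCAAT, or ATTGG where it runs the other way), an E-box (CACGTG) and a GC box (GGGCGG, or CCGCCC). Hmgcs1, Tm7sf2, Lss and Fasn were lower in Ezh2 KO, and Ebp and Abca1 were not called.

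Hmgcs1, chr13:119690201-119690350, plus strand: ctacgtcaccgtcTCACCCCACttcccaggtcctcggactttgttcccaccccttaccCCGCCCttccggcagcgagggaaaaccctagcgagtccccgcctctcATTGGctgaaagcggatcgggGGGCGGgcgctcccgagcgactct
Lss, chr10:76531455-76531604, plus strand: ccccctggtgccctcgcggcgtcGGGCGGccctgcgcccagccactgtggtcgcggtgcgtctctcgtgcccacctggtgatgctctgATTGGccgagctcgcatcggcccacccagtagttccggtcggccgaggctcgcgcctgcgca
Tm7sf2, chr19:6067851-6068000, minus strand: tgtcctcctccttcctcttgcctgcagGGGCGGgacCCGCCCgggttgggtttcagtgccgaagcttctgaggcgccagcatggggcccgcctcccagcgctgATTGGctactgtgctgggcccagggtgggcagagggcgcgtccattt
Fasn, chr11:120824548-120824697, minus strand: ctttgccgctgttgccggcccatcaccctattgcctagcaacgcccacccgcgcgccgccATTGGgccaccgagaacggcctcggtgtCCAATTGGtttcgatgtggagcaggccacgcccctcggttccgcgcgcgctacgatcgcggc
Ebp, chrX:8193513-8193662, minus strand: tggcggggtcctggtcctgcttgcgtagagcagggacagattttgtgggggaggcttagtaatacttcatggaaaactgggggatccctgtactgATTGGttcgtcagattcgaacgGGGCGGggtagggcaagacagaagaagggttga
Abca1, chr4:53159896-53160045, minus strand: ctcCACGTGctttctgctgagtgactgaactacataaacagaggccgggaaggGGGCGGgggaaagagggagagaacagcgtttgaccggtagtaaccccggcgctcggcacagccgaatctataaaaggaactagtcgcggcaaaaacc

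The Hmgcs1 window holds the sterol element from 137 to 129 bases before the start, and in the Fasn window 2 of the 3 NF-Y boxes overlap each other. Over the 250 bases before the start, that exact sterol element was found in 1 of 26 genes, Hmgcs1 (3.85%), against 1.25% of 9405 tested genes with a promoter entry. An NF-Y box was found in 19 of 26 (73.1%), against 40.4% of tested genes. Its share was 10 of 13 (76.9%) among genes lower in Ezh2 KO and 9 of 12 (75%) among genes not called. A GC box was found in 22 of 26 (84.6%, against 63.1%). An E-box was found in 6 of 26 (23.1%, against 9.89%). All 6 were genes not called (Hsd17b7, Sc5d, Dhcr7, Insig1, Scap and Abca1), and 0 of the 13 lower genes held one. This split depends on the threshold. Hsd17b7, Sc5d, Dhcr7 and Insig1 were called lower under some alternatives, and Abca1 was called higher under some. The 13 also leave out the lower genes Fdps, Fdft1, Sqle, Stard4, Scd1, Scd2 and Fads1, which had no promoter entry. Over all 32851 promoter entries the shares were 1.05% for the sterol element, 33.8% for the NF-Y box, 32.7% for the GC box and 6.02% for the E-box. A match is a description of letters and was not tested against the arrays.

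In the mevalonate arm, which runs from acetyl units to squalene, 6 of 7 genes were called lower, with a median difference of -0.94. The differences of all 7 were below zero. Hmgcs1, the synthase that commits acetyl units to the pathway, read 22349, 21160 and 24740 in wild type unpolarized, Th1 and Th2 cells against 12622, 12479 and 9462 in Ezh2 KO. Every Ezh2 KO array was far below every wild type array, and the lowest was Ezh2 KO Th2. It fell by 0.99 ± 0.34 (adjusted p = 0.0418). Mvk, mevalonate kinase, read 611, 479 and 531 in wild type cells against 374, 263 and 228 in Ezh2 KO, a fall of 0.93 ± 0.26 (adjusted p = 0.036). Pmvk, the next kinase, read 1964, 2095 and 2253 in wild type cells against 1089, 958 and 1259 in Ezh2 KO, and fell by 0.94 ± 0.16 (adjusted p = 0.0274). For neither kinase did the genotypes overlap. Mvd, the decarboxylase that makes the first isoprene unit, fell most in this arm, by 1.44 ± 0.26 (adjusted p = 0.0245). Its intensities were 1512, 1541 and 1616 in wild type cells against 684, 531 and 518 in Ezh2 KO.

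Idi1, which isomerizes the isoprene unit, read 8643, 8449 and 9662 in wild type cells against 6438, 5673 and 5280 in Ezh2 KO. Every Ezh2 KO array was below every wild type array, but the mean difference of -0.62 ± 0.23 missed the threshold (adjusted p = 0.0527). Idi1 passed under 5 of 9 alternatives, namely a stricter filter at the 60th percentile of mean signal (0.0143), a higher floor at the 40th percentile (0.0402), averaged probe sets (0.0314), no culture block (0.0154) and quantile normalization (0.0461). Fdps, which builds farnesyl diphosphate, read 14863, 14876 and 16368 in wild type cells against 8730, 7783 and 7514 in Ezh2 KO. It fell by 0.94 ± 0.18 (adjusted p = 0.0286). Its second probe set was under an intensity of 3 on every array, and averaging both gave -0.47 (adjusted p = 0.0512). Fdft1, which joins farnesyl units into squalene, read 7915, 7716 and 8887 in wild type cells against 4456, 3858 and 3825 in Ezh2 KO, a fall of 1.02 ± 0.19 (adjusted p = 0.0276). The average of its 4 probe sets, of which 2 are dim, gave -0.93 (adjusted p = 0.0888).

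From squalene to cholesterol, 6 of 10 genes were called lower and 4 were not called, with a median of -1.07. The differences of 9 were below zero. Tm7sf2, a sterol reductase that acts after lanosterol, had the lowest difference of all 33 genes. It read 827, 812 and 894 in wild type cells against 221, 201 and 218 in Ezh2 KO. The 3 pairs were almost equal (-1.90, -2.01 and -2.04), and the mean was 3.96-fold lower (-1.98 ± 0.07, adjusted p = 0.0143). Lss, which closes the rings to lanosterol, read 3411, 3237 and 4058 in wild type cells against 1428, 1104 and 1304 in Ezh2 KO. It fell by 1.48 ± 0.20 (adjusted p = 0.0213), and its other 2 probe sets were lower in all 3 pairs.

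Msmo1 and Nsdhl take part in removing the methyl groups of lanosterol. Msmo1 read 7001, 7061 and 7642 in wild type cells against 3148, 2875 and 2701 in Ezh2 KO, a fall of 1.32 ± 0.17 (adjusted p = 0.0217). Nsdhl read 3255, 2933 and 3474 in wild type cells against 1468, 1256 and 1375 in Ezh2 KO, a fall of 1.24 ± 0.10 (adjusted p = 0.02). On every array the Ezh2 KO intensity of both genes was well under that of wild type. Sqle, the squalene epoxidase, read 5231, 5127 and 5773 in wild type cells against 3158, 2850 and 2608 in Ezh2 KO, and fell by 0.91 ± 0.22 (adjusted p = 0.0327). Cyp51, the lanosterol demethylase, read 5442, 5754 and 6144 in wild type cells against 3594, 3606 and 3331 in Ezh2 KO. On the probe sets used, its fall of 0.72 ± 0.15 (adjusted p = 0.0337) was the smallest of the 6, and median centring ended the call (-0.67, adjusted p = 0.0582). A dimmer Cyp51 probe set fell by more (-1.06) and a much dimmer probe set by less (-0.56), so this rank depends on the probe set.

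The 4 genes of this arm that were not called did not behave alike. Dhcr7, which makes cholesterol from its last precursor, read 1028, 1350 and 1496 in wild type cells against 643, 574 and 361 in Ezh2 KO. The genotypes did not overlap, but the pairs differed widely (-0.68, -1.23 and -2.05), and the mean of -1.32 ± 0.69 missed the threshold (adjusted p = 0.0671). It passed with the stricter filter (0.0178), the higher floor (0.049) and no culture block (0.0206). Hsd17b7, a keto-reductase of the demethylation complex, read 1462, 1529 and 1835 in wild type cells against 1198, 994 and 902 in Ezh2 KO (-0.64 ± 0.37, adjusted p = 0.087), and passed with the stricter filter (0.0301), averaged probe sets (0.0451) and no culture block (0.0296). Ebp, a sterol isomerase, read 4002, 3859 and 4200 in wild type cells against 4176, 4116 and 4335 in Ezh2 KO. It was the only gene of the arm with a difference above zero, 0.07 ± 0.02 (adjusted p = 0.562). Its 95% interval from -0.16 to 0.29 does not reach the Cyp51 difference of -0.72 on the probe set used. That interval does not measure the spread between mice or preparations. Sc5d, a desaturase, read 3747, 3825 and 4057 in wild type cells against 3555, 3324 and 3461 in Ezh2 KO (-0.17 ± 0.08, adjusted p = 0.228). A dimmer Sc5d probe set read 558, 458 and 519 in wild type cells against 239, 202 and 221 in Ezh2 KO, so the probe sets of this gene disagree in size (-1.21 against -0.17). Averaged, they passed the threshold (adjusted p = 0.0492).

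**Figure D2:**
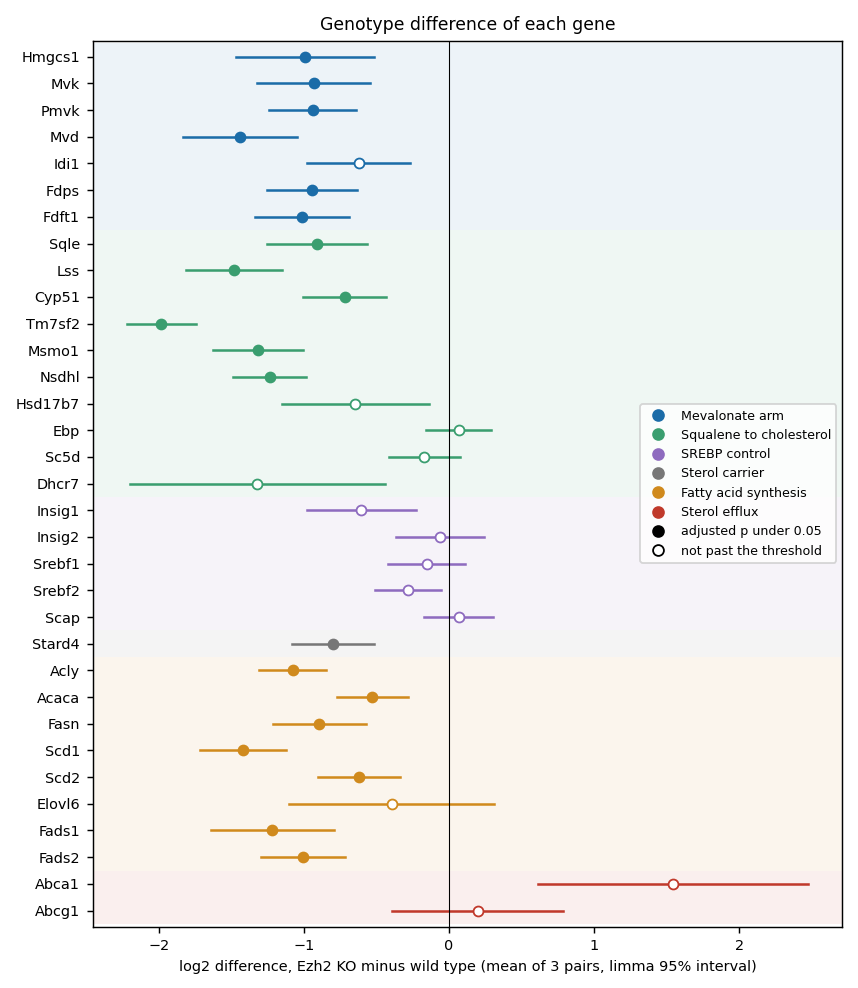
The mean log2 difference of each gene (Ezh2 KO minus wild type, over 3 culture pairs) is drawn with limma's 95% interval; filled points passed the adjusted threshold of 0.05, and colours give the arms. Tm7sf2 is farthest left at -1.98, the intervals of Ebp, Sc5d, Insig2, Srebf1, Scap, Elovl6 and Abcg1 cover zero, and Abca1 is farthest right at 1.54.

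Of the 5 genes that control SREBP, 0 were called and the median difference was -0.15. Srebf2, whose product mainly drives sterol genes, read 2051, 1949 and 2052 in wild type cells against 1689, 1545 and 1747 in Ezh2 KO. All Ezh2 KO arrays were lower, and the difference missed the threshold (-0.28 ± 0.05, adjusted p = 0.0919, 95% interval -0.51 to -0.05). Its dimmer probe set was also lower in all 3 pairs, by more (-0.57), and the average of both was -0.42. The stricter filter let Srebf2 pass (adjusted p = 0.0458). Srebf1, whose product mainly drives fatty acid genes, read 3981, 4108 and 4220 in wild type cells against 3695, 3351 and 4044 in Ezh2 KO. Its groups overlapped (-0.15 ± 0.12, adjusted p = 0.298, interval -0.42 to 0.11). Scap, the escort, read 1792, 1589 and 1935 in wild type cells against 1953, 1695 and 1913 in Ezh2 KO, with overlap (0.07 ± 0.07, adjusted p = 0.589, interval -0.17 to 0.30). The average of its probe sets turned this small value to -0.02.

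The Insig genes differ in control, since Insig1 is itself an SREBP target and Insig2 is not in most tissues. Insig1 read 3322, 3314 and 4146 in wild type cells against 2325, 2491 and 2245 in Ezh2 KO. All Ezh2 KO arrays were lower, and the mean of -0.60 ± 0.25 missed the threshold (adjusted p = 0.0607). It passed with the stricter filter (0.0176), the higher floor (0.0471) and no culture block (0.0201). Insig2 read 698, 828 and 907 in wild type cells against 758, 710 and 857 in Ezh2 KO, with overlap (-0.06 ± 0.17, adjusted p = 0.7, interval -0.37 to 0.24). Stard4, a soluble carrier that moves cholesterol between membranes and is an SREBP target, read 4299, 4178 and 4561 in wild type cells against 2656, 2503 and 2338 in Ezh2 KO. It fell by 0.80 ± 0.14 (adjusted p = 0.0303), with no overlap.

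In fatty acid synthesis, 7 of 8 genes were called lower, with a median of -0.95, and the differences of all 8 were below zero. Acly, which splits citrate to supply acetyl-CoA to both routes, read 9576, 10936 and 10106 in wild type cells against 4765, 5078 and 4650 in Ezh2 KO. On this probe set the fall was nearly the same in each pair (1.08 ± 0.06, adjusted p = 0.0208). Another bright Acly probe set fell by more in unpolarized, Th1 and Th2 cells (-1.29, -1.41 and -1.59), as did a dimmer probe set (-1.49, -1.71 and -1.66). The rest were dim and fell by less on average. Acaca, which makes malonyl-CoA, read 1119, 957 and 1055 in wild type cells against 723, 682 and 764 in Ezh2 KO. Its fall was the smallest called in the list, by 0.53 ± 0.09 (adjusted p = 0.0406), and both median centring (adjusted p = 0.0718) and the average of its probe sets (adjusted p = 0.162) ended the call. Fasn, the fatty acid synthase, read 5849, 5564 and 6341 in wild type cells against 3566, 3022 and 2981 in Ezh2 KO, a fall of 0.89 ± 0.19 (adjusted p = 0.0304). These genes did not overlap between genotypes.

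The desaturases place double bonds in the finished chains, and all 4 of this arm fell. Fads3, a desaturase kept in the list of fatty acid supply and elongation and named after the values were seen, was not called lower. Scd1 read 5585, 5495 and 7213 in wild type cells against 2306, 2096 and 2387 in Ezh2 KO, and fell by 1.42 ± 0.16 (adjusted p = 0.02). Scd2 read 26847, 30065 and 32245 in wild type cells against 19132, 19793 and 18863 in Ezh2 KO, and fell by 0.62 ± 0.14 (adjusted p = 0.0396). All Ezh2 KO arrays of both genes were below all wild type arrays, and median centring ended the call of Scd2 (adjusted p = 0.0784). Fads1 read 1247, 1079 and 1276 in wild type cells against 563, 553 and 439 in Ezh2 KO, a fall of 1.22 ± 0.29 (adjusted p = 0.0299). Fads2, its neighbour in the making of polyunsaturated chains, read 1564, 1622 and 1712 in wild type cells against 878, 782 and 781 in Ezh2 KO, a fall of 1.01 ± 0.16 (adjusted p = 0.026). Elovl6, which lengthens saturated chains, was the exception of the arm. It read 4505, 4347 and 4532 in wild type cells against 4716, 3637 and 2271 in Ezh2 KO, so only the Th1 and Th2 pairs were lower and the groups overlapped (-0.40 ± 0.54, adjusted p = 0.308). A dimmer Elovl6 probe set had the same signs in unpolarized, Th1 and Th2 cells (0.11, -0.11 and -0.63). The dimmest was lower in every pair (-0.19, -0.28 and -1.19), so the sign in unpolarized cells depends on the probe set.

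Neither export pump was called. Abca1, which loads cholesterol onto lipoproteins, read 70.4, 93.1 and 70.7 in wild type cells against 145, 214 and 371 in Ezh2 KO. It was dim in wild type, near the low-signal limit of 64.4, and all Ezh2 KO arrays were higher, most in Th2 (1.54 ± 0.74, 2.91-fold, adjusted p = 0.058). The call was gained with median centring (adjusted p = 0.0404), with a higher floor (0.0407), with a stricter filter (0.0139) and with no culture block (0.0301). The other 2 Abca1 probe sets were under the limit on every array and were not higher on average (-0.34 and -0.79). Abcg1 read 965, 977 and 618 in wild type cells against 855, 1032 and 995 in Ezh2 KO, with overlap (0.20 ± 0.44, adjusted p = 0.52), and its second probe set pointed down (-0.47). Without the Th2 pair the Abcg1 difference was -0.05.

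Beyond the probe sets used, 26 further probe sets of 14 of the lower genes reached the low-signal limit. All 26 had a mean difference below zero, and 20 of them were lower in all 3 pairs. Of the probe sets used for the 33 genes, 6 are of designs that can bind related transcripts (4 ending in _x_at and 2 in _s_at), and leaving such probe sets out again gave 20 lower genes.

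The gap between genotypes was widest in Th2 for most of the list, as values from 1 pair of arrays each. The median difference of the 33 genes was -0.69 in unpolarized, -0.76 in Th1 and -1.02 in Th2 cells, while that of all genes was -0.06 in each culture. The Th2 difference was the lowest of the 3 for 26 of 33 genes (78.8%), against 34.1% of all genes, and for 18 of the 20 genes called lower. Both genotypes showed a Th2 order of their own. The Th2 array was the highest wild type array for 28 of 33 genes (84.8%, against 33.7% of all genes). It was the lowest Ezh2 KO array for 19 of 33 (57.6%, against 35.8%), and the unpolarized array was the highest Ezh2 KO array for 20 (60.6%, against 35.6%). All genes of an array share its RNA and scaling, so these shares are no test, and with 1 pair per culture the difference between cultures was not tested.

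**Figure D3:**
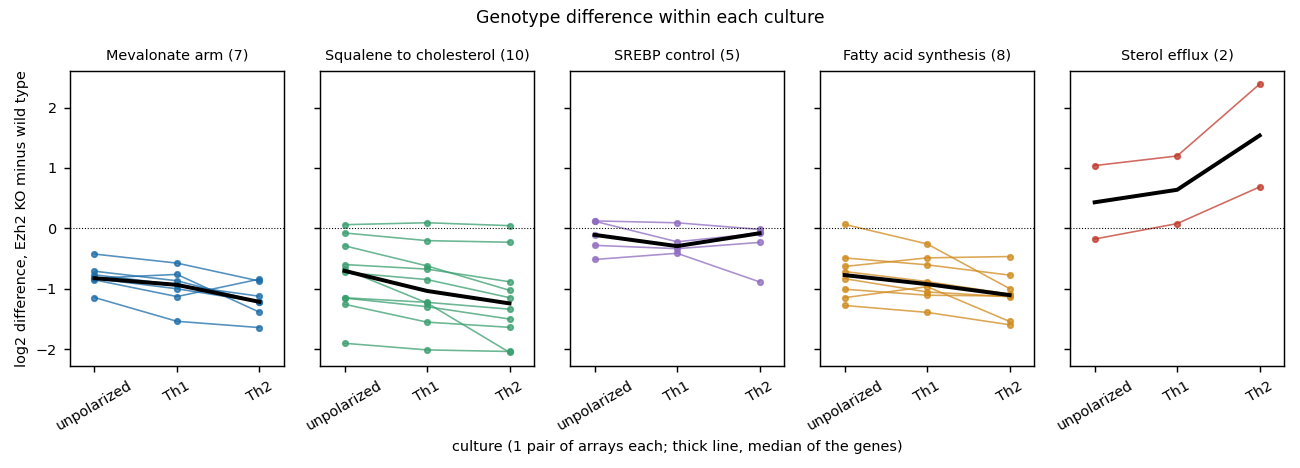
Points are the log2 differences (Ezh2 KO minus wild type) of single genes in each culture, joined by thin lines, with 1 pair of arrays per culture; thick lines are medians of the genes in each panel. The medians of the mevalonate, squalene to cholesterol and fatty acid panels go down from unpolarized to Th2, that of SREBP control stays near zero, and the efflux panel goes up. Stard4, the sterol carrier, is not drawn (-0.69, -0.74 and -0.96).

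By arm, the median differences in unpolarized, Th1 and Th2 cells were -0.82, -0.93 and -1.22 in the mevalonate arm. They were -0.70, -1.04 and -1.24 from squalene to cholesterol and -0.77, -0.92 and -1.10 in fatty acid synthesis. SREBP control stayed at -0.11, -0.29 and -0.08. Among single genes, Elovl6 on the probe set used went from above zero in unpolarized cells to a clear gap in Th2 (0.07, -0.26 and -0.997). Hmgcs1 had similar values in unpolarized and Th1 cells (-0.82 and -0.76) and a lower one in Th2 (-1.39). Of the genes called lower, Pmvk and Acaca went against the order, with their least negative value in Th2 (-0.84 and -0.47).

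**Figure D4:**
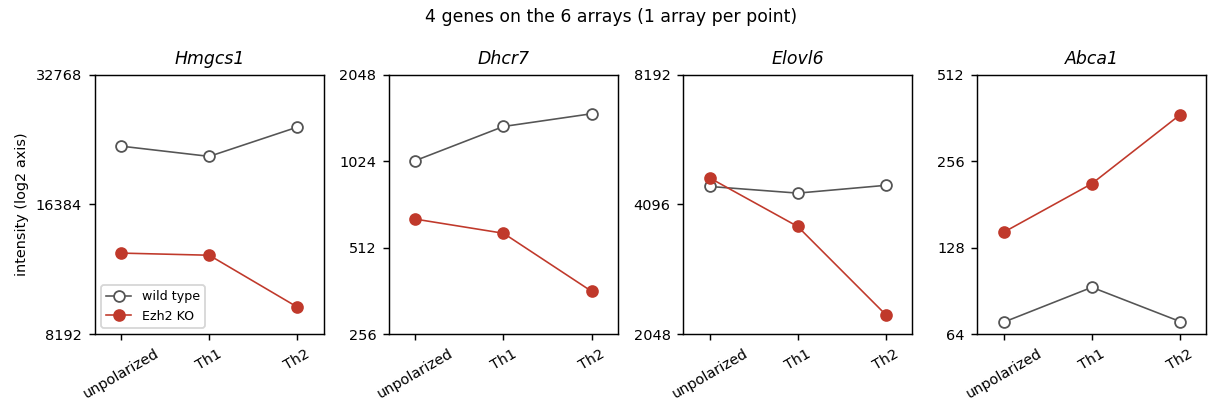
Intensities of Hmgcs1, Dhcr7, Elovl6 and Abca1 are drawn on a log2 axis, with its own range in each panel, for the 3 cultures; open points are wild type and filled points Ezh2 KO, 1 array each. The genotypes are farthest apart in Th2 in all 4 panels. Ezh2 KO lies below wild type for Hmgcs1 and Dhcr7 and above it for Abca1 in every culture. Elovl6, on the probe set used, crosses from above (4716 against 4505 in unpolarized cells) to below.

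No listed gene was called between cultures. Averaged over both genotypes, 0 of the 33 genes passed the adjusted threshold for Th1 against unpolarized, Th2 against unpolarized or Th1 against Th2. Of all genes tested 0 (0%) passed in each of these comparisons too, so the design called nothing there (limma, 2 residual degrees of freedom). At an unadjusted p under 0.05 there were again 0 of the 33 in each comparison, against 5.46%, 6.7% and 7.59% of all genes. Moves in opposite directions cancel in an average over genotypes and widen the residual spread. The Th2 array was the highest wild type array for 28 of 33 genes and the lowest Ezh2 KO array for 19. A count of 0 therefore does not show that these genes are insensitive to culture. The smallest adjusted p of a listed gene was 0.682, and the largest Th1 minus Th2 difference was 0.36 in size. Within wild type cells the median range over the 3 cultures was 0.20 (log2) for the 33 genes and 0.29 for all genes. Within Ezh2 KO cells it was 0.23 and 0.30.

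Other genes of lipid metabolism are given as counts beside the synthesis list, with no test between lists. Among genes that cleave or sort SREBP or degrade endoplasmic reticulum proteins, some of them sterol sensors, 0 of 10 were lower and 1 was higher, with a median of 0.08. Ubxn8, an endoplasmic reticulum protein that recruits the p97 ATPase to degrade membrane proteins, was the higher one (0.86 ± 0.22, adjusted p = 0.0353). It was listed for that general role, and nothing here ties it to SREBP or sterol sensing. Sec23a (-0.38), Rnf139 (0.37) and Erlin1 (0.22) were not called. Among other sterol genes 0 of 11 were lower and 1 was higher. It was Hsd11b1, which regenerates active glucocorticoid, at 1440, 1282 and 1037 in wild type cells against 2862, 2441 and 2119 in Ezh2 KO (0.98 ± 0.05, adjusted p = 0.0217). Cyb5b (0.36), Osbp (-0.33) and Nus1 (0.28) were not called. In the branch that uses farnesyl and geranylgeranyl units, 1 of 10 was lower, namely Fntb, a farnesyltransferase subunit (-0.76 ± 0.12, adjusted p = 0.03). Rabggtb (-0.35), Dhdds (-0.24) and Rabggta (-0.16) were not called. Of these uncalled genes of the 3 lists, Rnf139, Cyb5b, Osbp and Nus1 passed with the stricter filter.

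**Figure D5:**
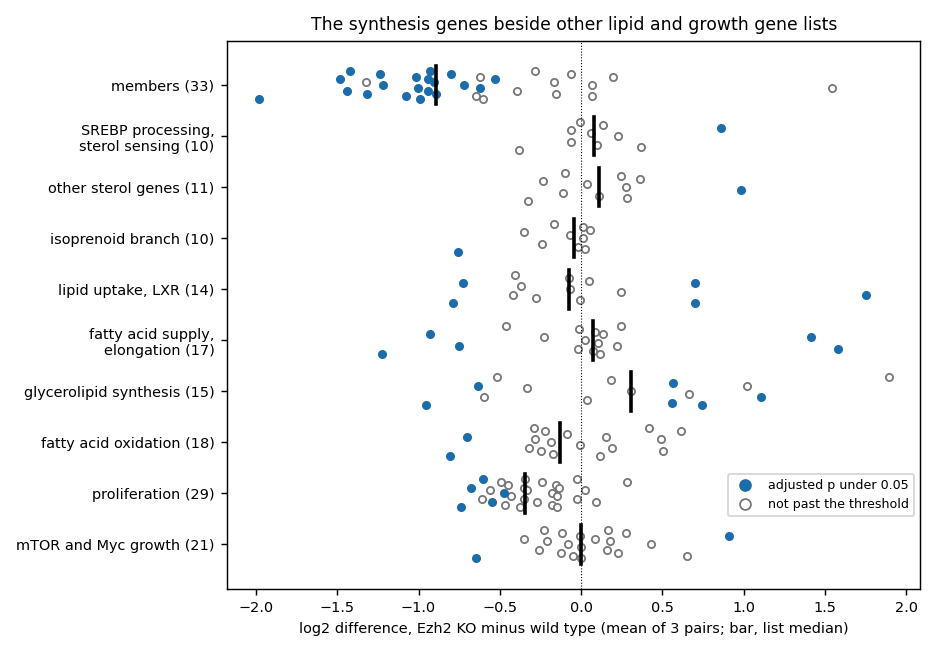
Each point is a gene tested, placed by its mean log2 difference (Ezh2 KO minus wild type, 3 pairs); filled points passed the adjusted threshold and bars are list medians, with the number of genes in brackets. The synthesis list has its median at -0.89, proliferation at -0.34, and the other lists between -0.13 and 0.31.

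Of 14 genes of lipid uptake and LXR response, 2 were lower and 3 higher, with a median of -0.07. Scarb1, a lipoprotein receptor, fell by 0.73 ± 0.07 (adjusted p = 0.028), and Vldlr, another, fell by 0.79 ± 0.27 (adjusted p = 0.045). The higher genes were Pltp, a phospholipid transfer protein, at 46.8, 54.1 and 90.8 in wild type cells against 207, 192 and 221 in Ezh2 KO (1.75 ± 0.44, adjusted p = 0.0287), Mylip, a ubiquitin ligase for lipoprotein receptors (0.70 ± 0.22, adjusted p = 0.0433), and Lpcat3, a phospholipid acyltransferase (0.70 ± 0.12, adjusted p = 0.0319). Pltp was under the low-signal limit on 2 of its 3 wild type arrays, so the size of its difference is uncertain. Nr1h3, which encodes an LXR receptor, was under the low-signal limit on 5 of 6 arrays. It and Lpcat3 were chosen after their values were seen.

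Some suppliers of acetyl units fell too. Of 17 genes of fatty acid supply and elongation, 3 were lower and 2 higher, with a median of 0.08. Acss2, which makes acetyl-CoA from acetate, read 1074, 924 and 1136 in wild type cells against 479, 441 and 419 in Ezh2 KO (-1.22 ± 0.19, adjusted p = 0.0237). Slc25a1, the citrate carrier that feeds Acly, fell by 0.93 ± 0.11 (adjusted p = 0.0256). The third was Acsl3, an acyl-CoA synthetase (-0.75 ± 0.13, adjusted p = 0.031), chosen after its values were seen. Both higher genes had low signal in wild type. Elovl7, an elongase, rose by 1.58 ± 0.36 (adjusted p = 0.0274), and Me1, a source of NADPH, by 1.42 ± 0.55 (adjusted p = 0.0445), although the groups of Me1 overlapped. Each had 1 wild type array under the low-signal limit. Among 15 genes of glycerolipid synthesis 2 were lower and 4 higher, with a median of 0.31. Pcyt2, of phosphatidylethanolamine synthesis, fell by 0.96 ± 0.25 (adjusted p = 0.0337), and Chpt1, of phosphatidylcholine synthesis, rose by 1.11 ± 0.10 (adjusted p = 0.0216). Mogat2 (1.89 ± 1.15, with all 3 wild type arrays under the limit) and Dgat1 (1.02 ± 0.69), both of triglyceride synthesis, were not called, and each passed under some alternatives. Of 18 genes of fatty acid oxidation 2 were lower and 0 higher. They were Eci1, an enoyl-CoA isomerase (-0.81 ± 0.17, adjusted p = 0.0319), and Acadm, a dehydrogenase of medium chains (-0.70 ± 0.16, adjusted p = 0.0364). Acadl, a dehydrogenase of long chains (0.62 ± 0.29, adjusted p = 0.0706), and Slc25a20, the acylcarnitine carrier (0.50 ± 0.22, adjusted p = 0.0728), had all Ezh2 KO arrays above wild type and were not called. Both passed with the stricter filter (0.022 and 0.0247).

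Of the genes named in these other lists, several lost their call under an alternative besides the missing filter and the missing pairs. Median centring ended those of Fntb, Mylip, Vldlr, Acsl3, Eci1 and Acadm (adjusted p 0.0515, 0.057, 0.0745, 0.0534, 0.053 and 0.0599). Without the culture block Fntb, Lpcat3, Me1 and Elovl7 were lost (0.0508, 0.0683, 0.108 and 0.0752). Averaging probe sets ended the call of Chpt1 (0.45, adjusted p = 0.0926), and leaving out probe sets that can bind related transcripts ended that of Elovl7 (0.89, adjusted p = 0.0683).

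Growth genes and markers of other cells were measured beside these falls. Of 29 proliferation genes 5 were lower and 0 higher, with a median of -0.34, and 26 differences were below zero. Among all genes tested 7.98% were lower, and 6619 of 11572 differences were below zero. The lower proliferation genes include Bub1 (-0.74 ± 0.10, adjusted p = 0.0295), Bub1b (-0.68 ± 0.04, adjusted p = 0.0287) and Aurkb (-0.61 ± 0.18, adjusted p = 0.0457), which act in mitosis. Tyms was not called (-0.61 ± 0.33). The call of Bub1b was lost with averaged probe sets and that of Aurkb with median centring. Ccna2 lost its call with either, and Cdca8 with median centring. Cdc20, Kif11, Mcm3, Mcm4, Mki67, Plk1 and Rrm1 passed as lower with the stricter filter, and Rrm2 as higher. The genes of these last 2 sentences were named after their values were seen. Summed intensity of the 29 was 238100 to 254100 in wild type and 204800 to 211000 in Ezh2 KO. Of 21 genes of mTOR and Myc driven growth 1 was lower, Tfrc, the transferrin receptor (-0.64 ± 0.16, adjusted p = 0.0403), and 1 higher, Hif1a (0.91 ± 0.26, adjusted p = 0.0365), with a median of -0.0023; Tfrc lost its call with median centring and Hif1a with averaged probe sets. Slc7a5 (0.65) and Slc3a2 (0.43), the chains of an amino acid carrier, were not called but passed with the stricter filter, as Tyms did.

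Defining T cell genes stayed bright, with 6 markers summing to 52200 to 56840 in wild type and 50840 to 58210 in Ezh2 KO, and 1 of the 6, Cd2, was lower. Of 15 myeloid and dendritic markers 9 were tested and 3 were higher (H2-Aa, Cd74 and Mpeg1), and the sum went from 4251 to 4812 in wild type to 6109 to 9314 in Ezh2 KO. The other 6, among them Lyz2, Itgam and Itgax, were under the low-signal limit on every array. The 5 NK markers summed to 254.6 to 1203 in wild type and 10210 to 13030 in Ezh2 KO. Klrd1, Nkg7 and Fcer1g were higher, whereas the defining Ncr1 and Tyrobp were under the limit on every array. The 6 B cell markers summed to 7416 to 8712 and 4509 to 5972. Ighm was lower, while Ms4a1 was higher and Cd79a and Pax5 were under the limit. The 2 CD8 markers summed to 389 to 414 and 374 to 540. The part of proliferation or of other cells in the falls of the synthesis genes was not tested.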

How the data were processed

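The authors deposited 1 linear intensity per probe set for each array, from RNA labelled by 3′ in vitro transcription, per the labels' protocols. The submitters' processing notes name Affymetrix Expression Console without a version, and do not say how probes were summarized. Every array had a trimmed mean of 500.003 (2% off each end), and medians ran from 61.3 to 69.1. Of 45101 probe sets, 64 are controls, 34945 have 1 gene symbol in the platform's annotation, 932 several and 9160 none.

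Intensities under the 20th percentile (11.33) were set to it before taking log2. Each gene was represented by its probe set of highest mean, and genes entered the test if any array reached 64.43, the median over all arrays and probe sets. With limma 3.58.1 in R 4.3.3, culture and genotype were fitted additively to all 6 arrays (2 residual degrees of freedom, prior 1.66), two-sided, with Benjamini-Hochberg adjustment over all genes tested and a threshold of 0.05. The procedure was tested on simulated data with independent noise for each gene. Those data held no effect shared by the genes of an array, so the simulation does not cover such effects. The number of arrays limits the precision.

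The members and lists were chosen with earlier results of these data known. All members are given, and of each other list up to 4 tested genes with the largest mean difference, Ezh2, and of each marker list the genes past the threshold or under the limit. Alternatives were median centring, quantile normalization, 2 other filters, 2 other floors, averaged probe sets, no block and leaving out each pair or array, and, chosen after seeing the data, leaving out probe sets ending in _s_at or _x_at. Promoter letters came from RefSeq, build GRCm38.p6.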

Additional observations from a re-analysis of the deposited data

How the results depend on the processing

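The median of the 33 genes kept its direction under every alternative, from -0.98 (without the unpolarized pair) to -0.79 (without the Th2 pair). Of the listed genes, 20 were lower in the fit reported, 16 with median centring, 21 with quantile normalization, 25 with a filter on mean signal (60th percentile), 20 with no floor, 23 with a floor at the 40th percentile, 20 with averaged probe sets and 24 with no culture block. The count was 0 with no filter and 0 without any 1 of the culture pairs. At an unadjusted p under 0.05 limma gave 26 of the 33 in the fit reported and with no filter, and 23 to 25 without a pair. Among all genes, 4479 of 11572 passed this cut in the fit reported and 4711 of 18193 with no filter. Without a pair 2952 to 3227 of 11572 did, so many genes outside the list passed too. With no filter 18193 genes were adjusted for, against 11572, and without a pair 1 residual degree of freedom is left. The count of higher genes was 0, and 1 (Abca1) with median centring, with the filter at the 60th percentile, with the floor at the 40th and with no culture block.

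Over all genes, 924 of 11572 were lower in the fit reported and 1874 of 8927 with the filter at the 60th percentile. The count was 1571 of 11572 with no culture block and 411 of 11568 with median centring. It was 844 of 11568 with quantile normalization and 850 of 11566 with no floor. With a floor at the 40th percentile it was 1182 of 11608, and with averaged probe sets 754 of 10624. With no filter or without any 1 of the pairs, 0 genes were called in either direction. Ezh2 missed the threshold with median centring (-0.47), with no filter (-0.52) and without a pair (-0.56 to -0.46). The cause of these changes was not tested. For culture comparisons, 0 listed genes were called under every alternative. Over the 33 genes and their alternatives, 288 values kept their side of the threshold, 87 fell short of it, 20 newly passed it and 0 called values changed sign. The fit reported pairs the arrays by culture, and the labels give no replicate numbers for another pairing. Signal over background limits Abca1, Pltp, Elovl7, Me1, Mogat2 and the second probe set of Fdps.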
